A study of Mus musculus with 9 samples.

Results

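Skeletal muscle that wastes breaks its own proteins down through a small set of well-studied genes, and 10 of them were followed here across 9 mouse leg muscles. They were chosen by name: the ubiquitin ligase genes Fbxo32 (atrogin-1), Trim63 (MuRF1), Fbxo30 (MUSA1) and Fbxo21 (SMART), the transcription factor genes Foxo1, Foxo3 and Foxo4, and the FoxO-linked genes Gadd45a, Eif4ebp1 and Ctsl. All 10 were among the 55335 genes of the count table, and all 10 were among the 18259 that passed the filter on low counts. RNA was sequenced from leg muscle of 9 WT mice, written c57b6l in the labels, and every mouse had the injury model that the labels call hindlimb suspension ischemia. Of these, 3 untreated mice served as controls, 3 were given aspirin, and 3 were given aspirin together with a peptide hydrogel, the last called hydrogel libraries below. Aspirin blocks the cyclooxygenases that make prostaglandins. The labels give neither sex, age, dose nor time after injury. Because the controls carry the injury too, no library here gives the level of these genes in uninjured muscle.

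Muscle mass falls when proteins are degraded faster than they are made. Insulin and IGF1 act through the kinase Akt, which phosphorylates FoxO factors and keeps them out of the nucleus. When that signal weakens, for instance in fasting, disuse or denervation, FoxO factors enter the nucleus and raise the genes of muscle ubiquitin ligases and of autophagy. Glucocorticoids and inflammatory cytokines reach some of the same genes. FoxO activity is set largely by where the protein sits in the cell, which transcript counts do not show.

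Fbxo32 and Trim63 encode the ligases most often used as markers of this state. Trim63, on chr4:134315120-134329629 of the mm10 build (plus strand), is known for joint control by FoxO and the glucocorticoid receptor, so the 250 bases before its start are shown (chr4:134314870-134315119, plus strand, from RefSeq on GRCm38.p6). Capitals mark 2 motifs found by search of both strands. The first, at bases -208 to -196 from the start, is a glucocorticoid receptor motif, searched as GAACA and its reverse complement facing each other across any 3 bases. The second, at -194 to -188, is TGTTTAC, which is the FoxO motif GTAAACA read on the other strand.

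Trim63: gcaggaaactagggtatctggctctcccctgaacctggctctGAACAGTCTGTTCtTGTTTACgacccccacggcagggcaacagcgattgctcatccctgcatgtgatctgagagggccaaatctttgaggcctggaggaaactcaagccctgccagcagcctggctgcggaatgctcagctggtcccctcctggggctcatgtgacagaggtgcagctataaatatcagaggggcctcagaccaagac

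The motifs lie next to each other with 1 base between them. Of 32851 mouse promoter windows of the same length, 3.17% held GTAAACA and 0.0396% held the glucocorticoid receptor motif. A single window, that of Trim63, held both. Windows were found for 7 of the 10 genes. The other 6 of these, for Fbxo30, Fbxo21, Foxo1, Foxo3, Gadd45a and Ctsl, held neither motif. The Ctsl window held the E-box CACGTG at -236 to -231, a sequence present in 6.02% of windows, and the shorter forkhead core TAAACA, which is contained in the FoxO motif, at -131 to -126, present in 12% of windows. Positions count from the RefSeq start, which can differ from the GENCODE span given for each gene. The windows of Ctsl, chr13:64370521-64370770 (minus strand), and Fbxo30, chr10:11281337-11281586 (plus strand), lie within the GENCODE spans of these genes. Those of Fbxo21, Foxo3 and Gadd45a run into the spans of their genes, and that of Foxo1 ends on the first base of its span. A match of letters does not show that a factor bound there in these muscles.

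The libraries were deep but unlike each other. Total counts ran from 32197791 to 48170537. Levels below are CPM, counts per 1000000 of a library size scaled by the TMM method, unless FPKM, the deposited values per kilobase of transcript, are named. On the first principal component of the 14572 genes averaging at least 1 CPM, Aspirin 1 lay at -152 and Hydrogel 3 at 100.7, with the remaining 7 between -49.21 and 39.22. Markers of muscle fibres, the defining cells of the labelled tissue, were present in every library, but their sum over 16 genes was 28700 CPM in Aspirin 1 and 117000 to 357000 CPM in the other 8. Myh4, a fast myosin, was at 2690 CPM in Aspirin 1 and at 23400 CPM or more elsewhere, Acta1 at 5460 against 18900 or more, and Ckm at 3110 against 9200 or more. The labels carry a code number of unstated meaning, 9 for the controls, 8 for the hydrogel libraries, 7 for Aspirin 1 and 2 and 10 for Aspirin 3, with no number shared between groups, so whatever it marks cannot be told apart from treatment. Within aspirin, Aspirin 3 carries another number than Aspirin 1 and 2, and the part of this in the differences between those libraries given below was not tested. In whole muscle, fewer cells of a type and less RNA per cell cannot be told apart either.

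The 10 genes spanned a wide range of levels. In FPKM, which allows genes to be compared per length, the means over the 9 libraries ran in the order Trim63 72.0, Ctsl 42.0, Fbxo32 32.7, Gadd45a 26.0, Foxo4 25.9, Eif4ebp1 13.8, Foxo3 5.36, Foxo1 5.36, Fbxo21 3.38 and Fbxo30 3.05. The lowest and highest libraries were 26.8 and 208 FPKM for Trim63, 14.9 and 117 for Ctsl, and 5.78 and 112 for Fbxo32. The ranges of neighbours in this order overlapped, apart from Eif4ebp1, which was at 8.11 FPKM or more, and Foxo3, which was at 7.69 FPKM or less. Trim63, Ctsl, Fbxo32 and Gadd45a were thus abundant in some mice and modest in others, while Fbxo21 and Fbxo30 stayed at 1.71 to 6.62 FPKM in all 9 libraries.

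**Figure D1:**
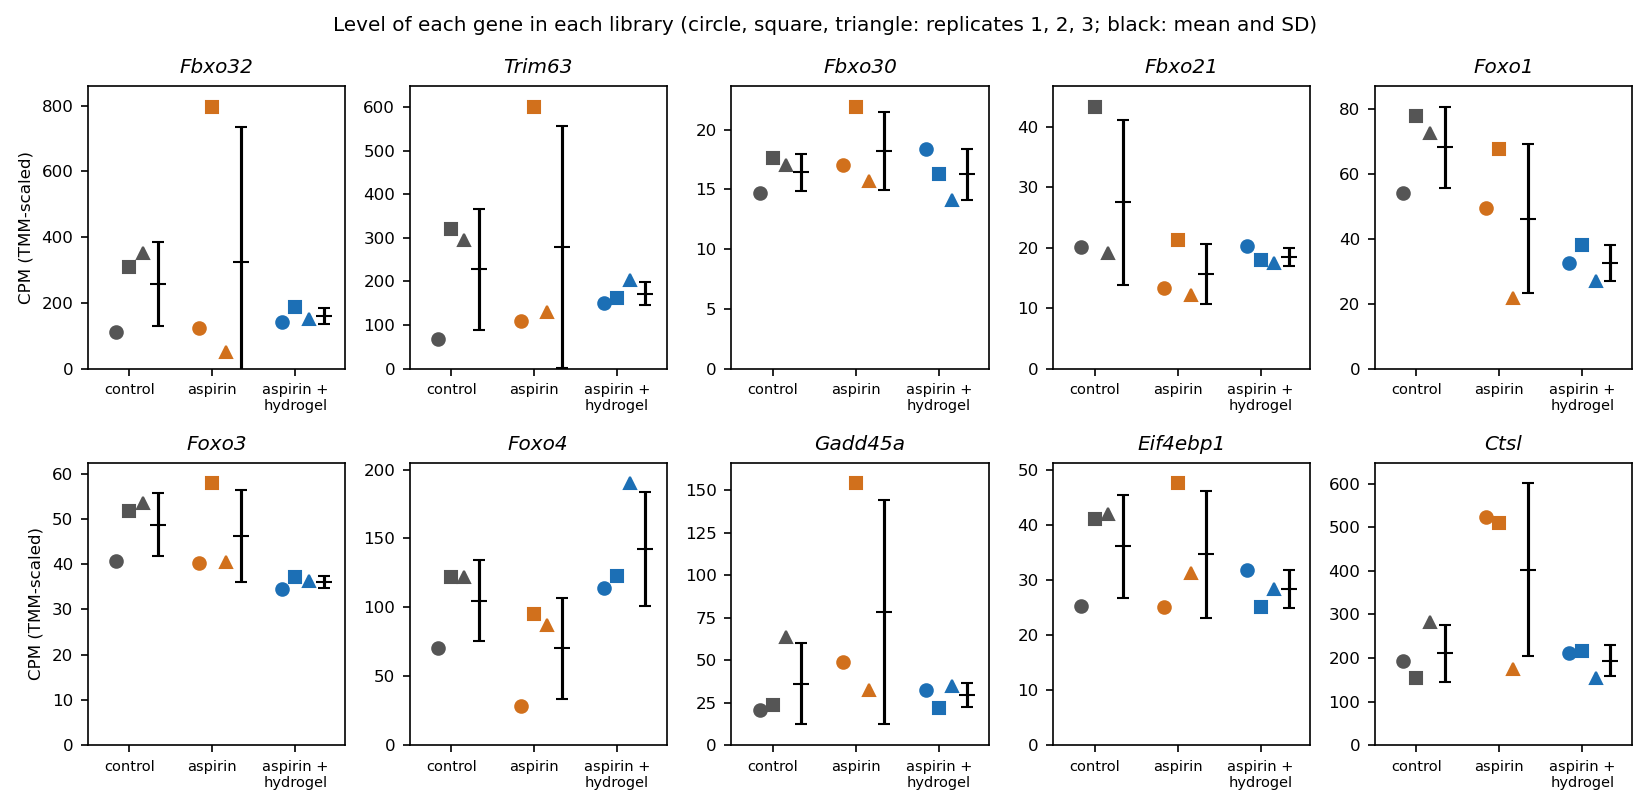
CPM of each gene (vertical axis, TMM-scaled, linear from 0) in the 9 libraries, with circle, square and triangle for replicates 1, 2 and 3 and black bars for the mean and SD of 3 mice. Aspirin 2, the orange square, stands highest for Fbxo32 at 796 CPM and Trim63 at 600 CPM, and the lower SD bar of Fbxo32 in aspirin runs below the axis.

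Fbxo32, whose product is the substrate-binding part of an SCF ligase that targets among others eIF3f and MyoD, varied most. It stood at 111, 310 and 351 CPM in the controls, at 124, 796 and 50.6 CPM in the aspirin libraries, and at 141, 186 and 152 CPM in the hydrogel libraries. The aspirin group held the highest and the lowest of the 9 values, 15.7-fold apart, and overlapped both other groups. The hydrogel libraries lay within 1.33-fold of each other, inside the control range, which spanned 3.17-fold. The gene lies on chr15:58175879-58214932 (minus strand), and 186 of its exonic bases are shared with the antisense gene Gm15943, which averaged 5.47 CPM. This mean and those of the other overlapping genes given below are CPM by library size, without TMM scaling. Whether counting used strand is not given in the sources used here.

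Trim63, whose product is a RING ligase of the sarcomere that targets thick-filament proteins, spread almost as widely. The controls stood at 68.4, 320 and 295 CPM, the aspirin libraries at 109, 600 and 129 CPM, and the hydrogel libraries at 151, 162 and 202 CPM. Aspirin 2 was again the highest, at 1.88 times the next library, and Control 1 the lowest. All 3 groups overlapped, with a spread of 4.67-fold within controls, 5.49-fold within aspirin and 1.34-fold within the hydrogel group. Group accounted for 1.42% of the variance of Trim63 on the log2 CPM scale and for 4.56% of that of Fbxo32, against a median of 28% over all genes tested.

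The ratio of these ligases was steadier than either level. Trim63 FPKM over Fbxo32 FPKM was 1.52, 2.54 and 2.06 in the controls, 2.17, 1.86 and 6.27 in aspirin, and 2.65, 2.14 and 3.27 in the hydrogel group. Aspirin 3 stood apart, with the lowest Fbxo32 FPKM of all libraries and the second lowest Trim63 FPKM.

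Fbxo30 and Fbxo21, F-box genes described later as FoxO-dependent in denervated muscle, were expressed at far lower levels. Fbxo30 (chr10:11281330-11298052, plus strand) stood at 14.7, 17.6 and 17.0 CPM in the controls, 17.0, 21.9 and 15.7 CPM in aspirin, and 18.4, 16.3 and 14.1 CPM in the hydrogel group. These values span 1.56-fold over all 9 libraries, the narrowest range of the 10 genes. Fbxo21 (chr5:117976730-118010201, plus strand) stood at 20.1, 43.3 and 19.2 CPM in the controls, 13.4, 21.3 and 12.2 CPM in aspirin, and 20.2, 17.9 and 17.4 CPM in the hydrogel group. Control 2 stood apart, and the other 8 libraries lay between 12.2 and 21.3 CPM.

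Foxo1, the FoxO factor most closely tied to fasting metabolism in muscle, was lower in all hydrogel libraries than in any control. It stood at 54.1, 77.8 and 72.5 CPM in the controls and at 32.5, 38.1 and 26.9 CPM in the hydrogel libraries. The aspirin libraries, at 49.3, 67.5 and 21.7 CPM, spread over both of these ranges, and Aspirin 3 held the lowest value. Foxo1 lies on chr3:52268336-52353221 (plus strand), and its antisense neighbour Gm20402, which shares 674 exonic bases, averaged 0.00648 CPM.

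Foxo3, which can raise Fbxo32 and autophagy genes in muscle, showed the same order with a smaller step. The controls stood at 40.8, 51.9 and 53.6 CPM, the aspirin libraries at 40.3, 57.9 and 40.6 CPM, and the hydrogel libraries at 34.6, 37.2 and 36.4 CPM. The hydrogel values lay below all 6 others, by as little as 37.2 against 40.3 CPM. Foxo3 lies on chr10:42181841-42276755 (minus strand).

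Foxo4 (chrX:101254528-101260873, plus strand), a smaller member of the family, went the other way. It stood at 70.8, 122 and 122 CPM in the controls, at 28.3, 95.5 and 86.9 CPM in aspirin, and at 114, 123 and 190 CPM in the hydrogel group. The hydrogel libraries lay above all aspirin libraries and overlapped the controls. The lowest value was in Aspirin 1 and the highest in Hydrogel 3, which were also the libraries with the lowest and highest sums of muscle fibre markers.

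The makeup of the FoxO transcripts therefore differed, as a share of the 3 summed FPKM values. This ratio was chosen after the levels had been seen and is a description. Foxo4 made up 63.6, 68.8 and 69.4% in the controls, 42.5, 64 and 76.1% in aspirin, and 79.8, 79.2 and 87.4% in the hydrogel group. Foxo1 made up 19.5, 17.7 and 16.6% in the controls, 29.7, 18.2 and 7.63% in aspirin, and 9.12, 9.84 and 4.95% in the hydrogel group. Foxo4 was the largest share in all 9 libraries. Foxo4 over Foxo1 was 3.26 to 4.18 in the controls and 8.04 to 17.6 in the hydrogel group, without overlap, and the aspirin libraries ran from 1.43 to 9.97. The ratio does not depend on how libraries are scaled to each other, but it may depend on tissue makeup. It was lowest in Aspirin 1 and highest in Hydrogel 3, which also held the lowest and highest fibre marker sums. From the lowest sum to the highest, the ratios were 1.43, 3.26, 3.52, 3.89, 8.75, 8.04, 4.18, 9.97 and 17.6. Control 3, at 4.18 with a sum of 256000 CPM, lay below Hydrogel 1 and 2, whose sums were 196000 and 213000 CPM. The part of tissue makeup was not tested.

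**Figure D2:**
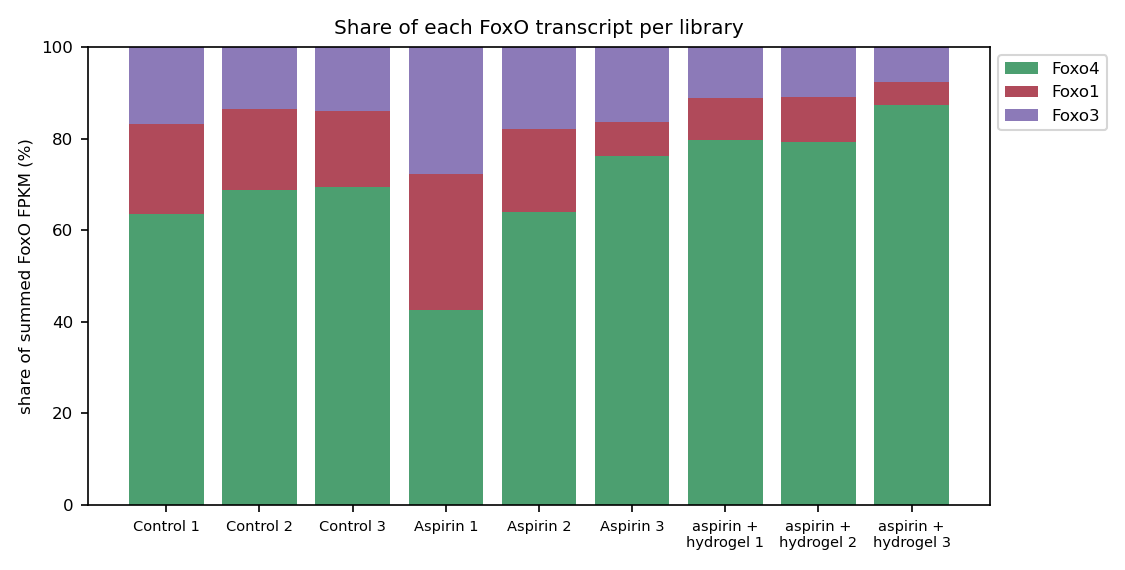
Share (percent, vertical axis from 0 to 100) of Foxo4, Foxo1 and Foxo3 in their summed FPKM, 1 stacked bar per library. Foxo4 holds 79.2 to 87.4% in the hydrogel bars and 63.6 to 69.4% in the control bars, and the aspirin bars range from 42.5 to 76.1%.

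Among the FoxO-linked genes, Gadd45a, a stress gene that is raised in denervated and fasted muscle, was again highest in Aspirin 2. The controls stood at 20.7, 23.8 and 63.6 CPM, the aspirin libraries at 48.9, 154 and 32.6 CPM, and the hydrogel libraries at 32.1, 21.5 and 35.0 CPM. Aspirin 2 was at 4.77 times the median of the other 8 libraries. Gadd45a lies on chr6:67035096-67037457 (minus strand), and E230016M11Rik, which shares 337 exonic bases on the opposite strand, averaged 1.7 CPM.

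Eif4ebp1 encodes 4E-BP1, which holds back cap-dependent translation until mTORC1 phosphorylates it. It stood at 25.3, 41.0 and 41.9 CPM in the controls, at 25.0, 47.5 and 31.3 CPM in aspirin, and at 31.8, 25.0 and 28.3 CPM in the hydrogel group. The groups overlapped over a total range of 1.90-fold. Eif4ebp1 lies on chr8:27260329-27276674 (plus strand).

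Ctsl encodes cathepsin L, a lysosomal protease that is raised in wasting muscle and is also abundant in macrophages. The controls stood at 194, 155 and 282 CPM, the aspirin libraries at 524, 511 and 175 CPM, and the hydrogel libraries at 212, 216 and 153 CPM. Aspirin 1 and 2 lay above the 7 other libraries, while Aspirin 3 lay within the control range. Ctsl lies on chr13:64359337-64370890 (minus strand), and the genes sharing its exonic bases, Gm47123 and the pseudogene Gm49230, averaged 0 and 0.0368 CPM.

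The sum of 10 monocyte and macrophage markers moved with Ctsl. It was 1190, 670 and 1910 CPM in the controls, 3300, 3030 and 1410 CPM in aspirin, and 1230, 1500 and 585 CPM in the hydrogel group, so that the same aspirin libraries were highest. Over the 9 libraries Pearson's r between this sum and Ctsl on the log2 scale was 0.928 (exact permutation p = 0.000243, adjusted p = 0.00243 over 10 relations) and Spearman's rho was 0.95 (exact permutation p = 0.000353, adjusted p = 0.00353). Without Hydrogel 3 and Aspirin 1, the libraries farthest from the median of the sum, r was 0.909. Ctsl over the marker sum lay between 0.125 and 0.262 in all libraries. The part of these cells in the Ctsl level was not tested.

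Aspirin was first set against control to ask how these genes stood with the drug alone. Gadd45a averaged 78.6 ± 66.2 CPM (SD, n = 3) with aspirin and 36.0 ± 23.9 CPM in controls, and Ctsl 403 ± 198 against 210.5 ± 64.9 CPM. Fbxo21 averaged 15.6 ± 4.95 against 27.5 ± 13.7 CPM and Foxo1 46.2 ± 23.1 against 68.1 ± 12.4 CPM. The means of Fbxo32, 323 against 257 CPM, rested on Aspirin 2. None of the 10 genes passed the test, in which 0.00% of the 18259 genes passed at an adjusted p under 0.05 (edgeR's quasi-likelihood test with Benjamini-Hochberg adjustment over all genes, as in all comparisons below).

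In log2 fold change with its standard error, Gadd45a was at 1.13 ± 0.62 (adjusted p = 0.761, with all 3 aspirin libraries above 2 of the 3 controls) and Ctsl at 0.94 ± 0.45 (adjusted p = 0.753). Fbxo21 was at -0.81 ± 0.35, the one member with an unadjusted p under 0.05 (adjusted p = 0.753 by edgeR), lower as were 3.39% of all genes at that level, while 3.09% were higher. Fbxo32, at 0.33 ± 0.87, and Trim63, at 0.30 ± 0.73, had intervals of 0.320- to 4.93-fold and 0.388- to 3.88-fold, so that changes of either sign by several fold were not distinguishable with these mice. Of the 10 genes 5 were higher and 5 lower, with a median of 0.04 against 0.05 over all genes. Under library size alone 7 were higher and 3 lower. No member had groups that did not overlap, where 5.54% of all genes were higher without overlap and 5.44% lower.

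Single mice set the direction for several of these values. Without Aspirin 2 the log2 fold change was -1.56 for Fbxo32, -0.94 for Trim63 and -0.01 for Fbxo30, and without Control 1 it was -0.03 for Fbxo32 and -0.14 for Trim63. Gadd45a was at 0.18 without Aspirin 2, Fbxo21 at -0.33 without Control 2 and -0.56 under library size alone, Foxo1 at -0.20 without Aspirin 3 and Foxo4 at -0.21 without Aspirin 1. With the replicate number as a block Fbxo32 was at -0.18, and with limma-voom at -0.51. Foxo3, at -0.08 ± 0.21, and Eif4ebp1, at -0.06 ± 0.29, turned to 0.17 under scaling by library size alone, a scaling that moved the median of all genes by 0.23 in this comparison.

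Deviations of same-numbered aspirin and control libraries from their group means correlated at 0.615, 0.133 and 0.264. The sample titles number the replicates but state no pairing, so these libraries were read as pairs for description only. Fbxo21, Foxo1 and Foxo4 were lower with aspirin in 3 of 3 pairs, although under library size alone Foxo1 was lower in 1 of 3. With the replicate block their log2 fold changes were -0.77, -0.67 and -0.68, each with an adjusted p of 0.701 by edgeR. Fbxo32, Trim63, Fbxo30, Gadd45a and Ctsl were lower in 1 of 3 pairs, and Foxo3 and Eif4ebp1 in 2 of 3, or 1 of 3 under library size alone. Such shares over all genes are not given here, so these counts do not set the members apart from other genes.

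The hydrogel group was next set against the same controls, the comparison of the combined treatment with none. Foxo1 averaged 32.5 ± 5.64 CPM (SD, n = 3) against 68.1 ± 12.4 CPM in controls, 2.10-fold lower, and Foxo3 36.1 ± 1.33 against 48.8 ± 6.93 CPM, 1.35-fold lower. Fbxo32 averaged 159.6 against 257 CPM and Trim63 172 against 227.5 CPM, within the spread of the controls. No member passed the adjusted threshold, as for 0.00% of all genes.

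Foxo1 had a log2 fold change of -1.07 ± 0.38 (adjusted p = 0.987 by edgeR) and a 95% interval of 0.263- to 0.864-fold, lower in 3 of 3 mice than every control. It was the one member with an unadjusted p under 0.05, a level that 2.18% of all genes reached as lower and 1.74% as higher. Foxo3 was at -0.43 ± 0.21 (adjusted p = 0.987 by edgeR), also with no overlap. These 2 of 10 lower without overlap compare with 6.30% of all genes, and none of the 10 was among the 6.85% higher without overlap. With library size alone, and with deposited FPKM, Eif4ebp1 was lower without overlap as well, and scaling by library size moved the median of all genes by -0.23.

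The other genes lay closer to the controls. Foxo4, at 0.45 ± 0.45, was the only one of 10 on the higher side, and the median of the 10 was -0.38 against -0.03 over all genes. Leaving out any 1 library of the compared groups kept Foxo1 between -1.21 and -0.96 and Foxo3 between -0.55 and -0.36. The unadjusted p of Foxo1 by edgeR rose to 0.0586 without Control 2, 0.0514 without Hydrogel 1 and 0.0619 without Hydrogel 3. Gadd45a, at -0.28 ± 0.62, turned to 0.41 without Control 3, Ctsl, at -0.12 ± 0.44, to 0.14 without the same library, and Fbxo30, at -0.01 ± 0.21, to 0.04 without Control 2.

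The sum of 7 fibroblast markers was 11300, 7840 and 6720 CPM in the controls and 4650, 7150 and 5450 CPM in the hydrogel libraries, and that of 8 endothelial markers 549, 653 and 358 CPM against 459, 423 and 294 CPM. The part of either cell type in the levels of Foxo1 and Foxo3 was not tested. Levels were also read relative to muscle fibre RNA, as counts per 1000000 counts of the fibre markers. Foxo1 stood at 462, 416 and 283 in the controls and 165, 179 and 75.3 in the hydrogel libraries, without overlap. Foxo3 stood at 349, 278 and 209 against 176, 175 and 102. Fbxo32 and Eif4ebp1 were lower without overlap too, Eif4ebp1 at 216, 220 and 163 against 162, 117 and 79.4. The divisor, the marker sum, was 117000 to 256000 CPM in the controls and 196000 to 357000 CPM in the hydrogel libraries. The share of all genes without overlap on this scale was not computed. Foxo4 on this scale was 605, 650 and 475 against 581, 580 and 534, with overlap.

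**Figure D3:**
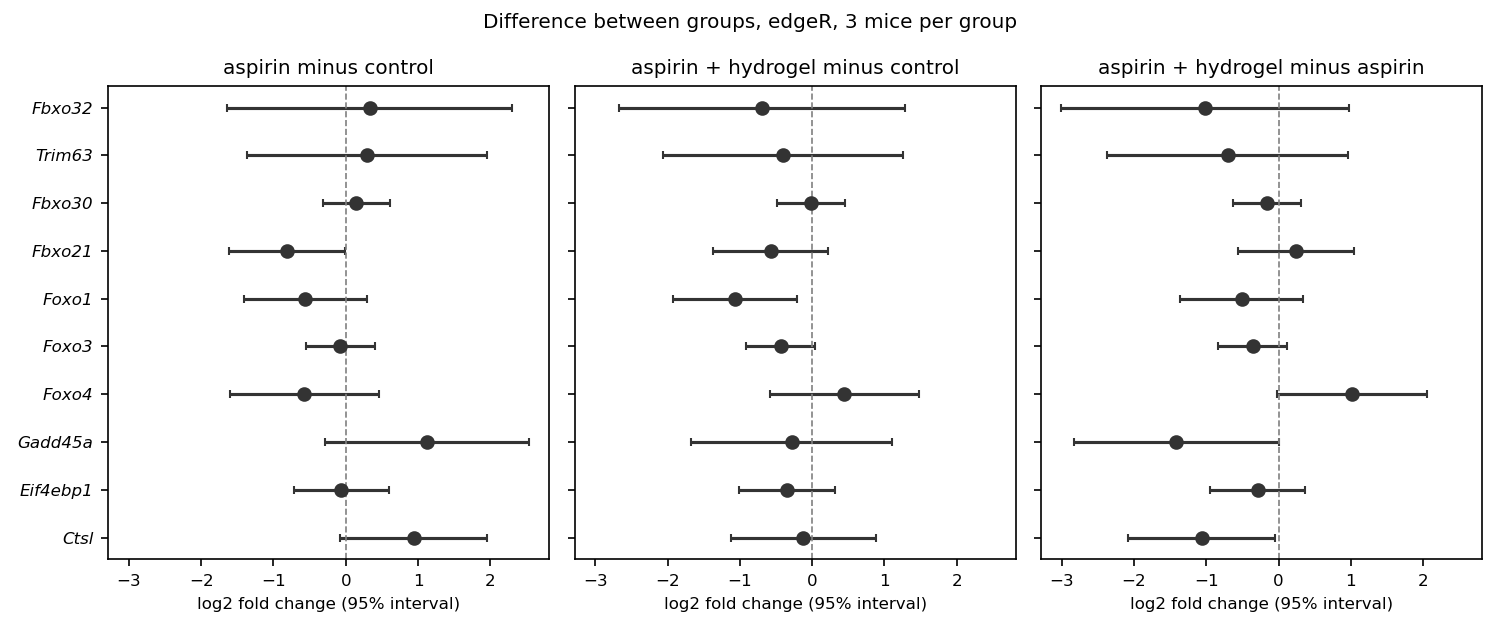
Log2 fold change of each gene (horizontal axis, dots) with its 95% interval (bars) in the 3 comparisons of 3 mice per group, edgeR. The bar of Foxo1 in the middle panel, from 0.263- to 0.864-fold, stays left of 0, as do those of Fbxo21 at left and Ctsl at right, although no adjusted p was under 0.05.

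The hydrogel group against aspirin asks how the combination stood relative to aspirin alone. It shares its libraries with both comparisons above. Gadd45a averaged 29.6 ± 7.12 CPM (SD, n = 3) against 78.6 ± 66.2 CPM with aspirin alone, and Ctsl 193.5 ± 34.9 against 403 ± 198 CPM. Foxo4 averaged 143 ± 41.7 against 70.2 ± 36.5 CPM, the largest difference on the higher side among the 10. None of the 10 passed the adjusted threshold, which 0.00% of all genes passed.

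Ctsl had a log2 fold change of -1.06 ± 0.45 (adjusted p = 0.454 by edgeR), the one member with an unadjusted p under 0.05. All genes reached that level as lower in 7.61% and as higher in 3.32%. Gadd45a was at -1.41 ± 0.63 (adjusted p = 0.454) and Foxo4 at 1.02 ± 0.46 (adjusted p = 0.456), 2.03-fold higher with an interval of 0.989- to 4.17-fold. Foxo4 was higher without overlap, as were 7.46% of all genes, and Foxo3, at -0.36 ± 0.21, was lower without overlap, as were 8.75%.

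Aspirin 2 decided the sign of the ligases here too. Fbxo32, at -1.02 ± 0.88, was at 0.87 without it, Trim63, at -0.70 ± 0.74, at 0.53, and Eif4ebp1, at -0.29 ± 0.29, at 0.01. Gadd45a was at -0.46 and Foxo1 at -0.13 without it, and Foxo4 was at 0.66 without Aspirin 1 and at 0.67 under library size alone. Relative to fibre markers, on the scale of counts per 1000000 marker counts, Foxo4 stood at 987, 575 and 304 with aspirin and at 581, 580 and 534 in the hydrogel group, which overlap. Under library size alone Fbxo21, at 0.24 ± 0.35, turned to -0.20 and Foxo3 overlapped, and this scaling moved the median of all genes by -0.46. Of the 10 genes 8 were on the lower side, with a median of -0.43 against -0.05 over all genes, and 9 under library size alone.

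**Figure D4:**
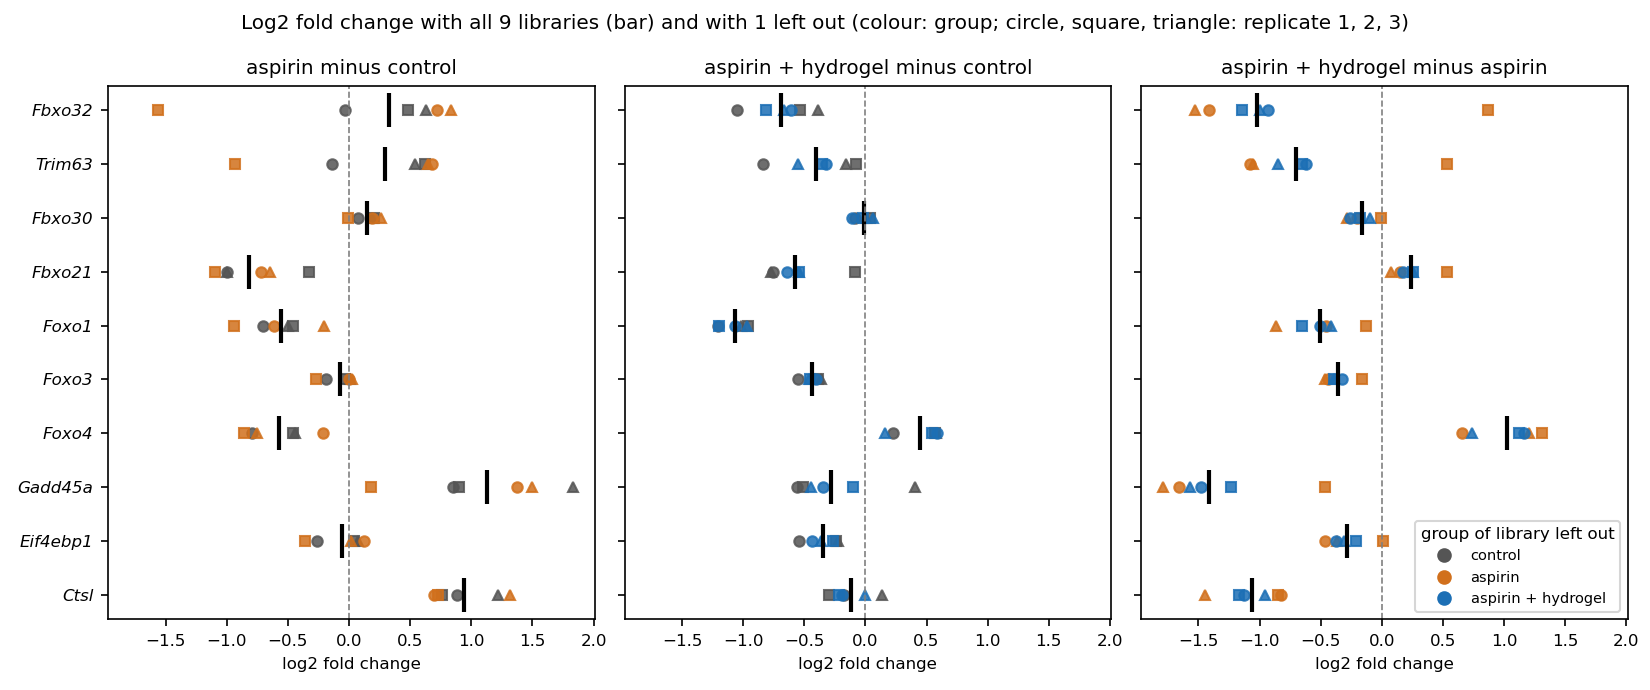
Log2 fold change of each gene with all 9 libraries (black bars) and with 1 library of the compared groups left out (coloured by its group, with its replicate as circle, square or triangle). Without Aspirin 2, the orange square, Fbxo32 moves to -1.56 in the left panel and to 0.87 in the right one, whereas Foxo1 in the middle panel stays between -1.21 and -0.96.

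Over the 10 genes Aspirin 2 stood out. It held the highest value of 6 of the 10, namely Fbxo32, Trim63, Fbxo30, Foxo3, Gadd45a and Eif4ebp1, and the highest value of 9.15% of all genes. Its Fbxo32 was at 5.44 times the median of the other 8 libraries and its Trim63 at 3.83 times. Aspirin 3 held the lowest value of 3 of the 10, Fbxo32, Fbxo21 and Foxo1, and of 7.76% of all genes. Aspirin 1, which stood farthest from the rest over all genes and held the highest value of 29.2% of them, was highest for Ctsl alone among the 10. The test of any difference among the 3 groups called 0.00% of genes, and adjusted p-values of the 10 ran from 0.659 to 0.892 by edgeR.

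Dividing by the low fibre marker sum of Aspirin 1 changed how its ligases compared. As counts per 1000000 counts of the 16 muscle fibre markers, Fbxo32 stood at 946, 1660 and 1370 in the controls, at 4320, 4800 and 177 in aspirin, and at 717, 877 and 425 in the hydrogel group. Trim63 stood at 585, 1710 and 1150 in the controls, at 3810, 3620 and 450 in aspirin, and at 770, 762 and 566 in the hydrogel group. On this scale Aspirin 1 joined Aspirin 2 above all other libraries for both genes. Aspirin 1 was also the highest library for every other member, among them Ctsl at 18200, Foxo1 at 1720 and Eif4ebp1 at 871. Its marker sum, the divisor, was the lowest at 28700 CPM, so its rank here is not particular to the ligases. The hydrogel libraries lay below the controls for Fbxo32 but not for Trim63. These ratios were chosen after the levels were seen and carry no test.

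Fbxo32 and Trim63 varied together over the 9 mice. Pearson's r of their log2 CPM was 0.858 (exact permutation p = 0.00382, adjusted p = 0.0191 over 10 relations) and Spearman's rho 0.917 (exact permutation p = 0.00131, adjusted p = 0.00656). Without Aspirin 2 and Control 1 r was 0.817. With 1 library left out, the adjusted p was 0.0508 without Control 2, 0.052 without Control 3 and 0.125 without Aspirin 2 (exact permutation), and it stayed under 0.05 without any of the other 6. Neither followed the sum of muscle fibre markers, with r = 0.0685 for Fbxo32 (exact permutation p = 0.84) and 0.349 for Trim63 (exact permutation p = 0.352).

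The FoxO transcripts followed the ligases less evenly. Foxo1 with Fbxo32 gave r = 0.755 (exact permutation p = 0.0162, adjusted p = 0.0405) and rho = 0.65 (adjusted p = 0.222), and r = 0.631 without Aspirin 3 and Hydrogel 3. Foxo3 gave r = 0.754 with Fbxo32 (exact permutation p = 0.0148, adjusted p = 0.0405) and 0.735 with Trim63 (exact permutation p = 0.0229, adjusted p = 0.0458), with rho of 0.5 and 0.467. Without Aspirin 2 and Control 3 these were 0.363 and 0.373, so both relations of Foxo3 rest on those libraries. The adjusted p of these 3 FoxO relations lay above 0.05 on leaving out most single libraries, for instance 0.204 for Foxo1 with Fbxo32 without Aspirin 3 and 0.254 for both of Foxo3 without Aspirin 2 (exact permutation). Foxo4 gave r = 0.254 with Fbxo32 and 0.437 with Trim63, and Foxo1 0.454 with Trim63, with exact permutation p of 0.49, 0.239 and 0.221. Within a group of 3 mice no such relation can be computed under the minimum of 6 samples. The permutations ran over all 9 libraries without regard to group, so differences between groups and within them are not told apart. Group accounted for 50.6% of the variance of Foxo1 on the log2 CPM scale, 52.3% of that of Foxo3 and 41.3% of that of Ctsl.

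**Figure D5:**
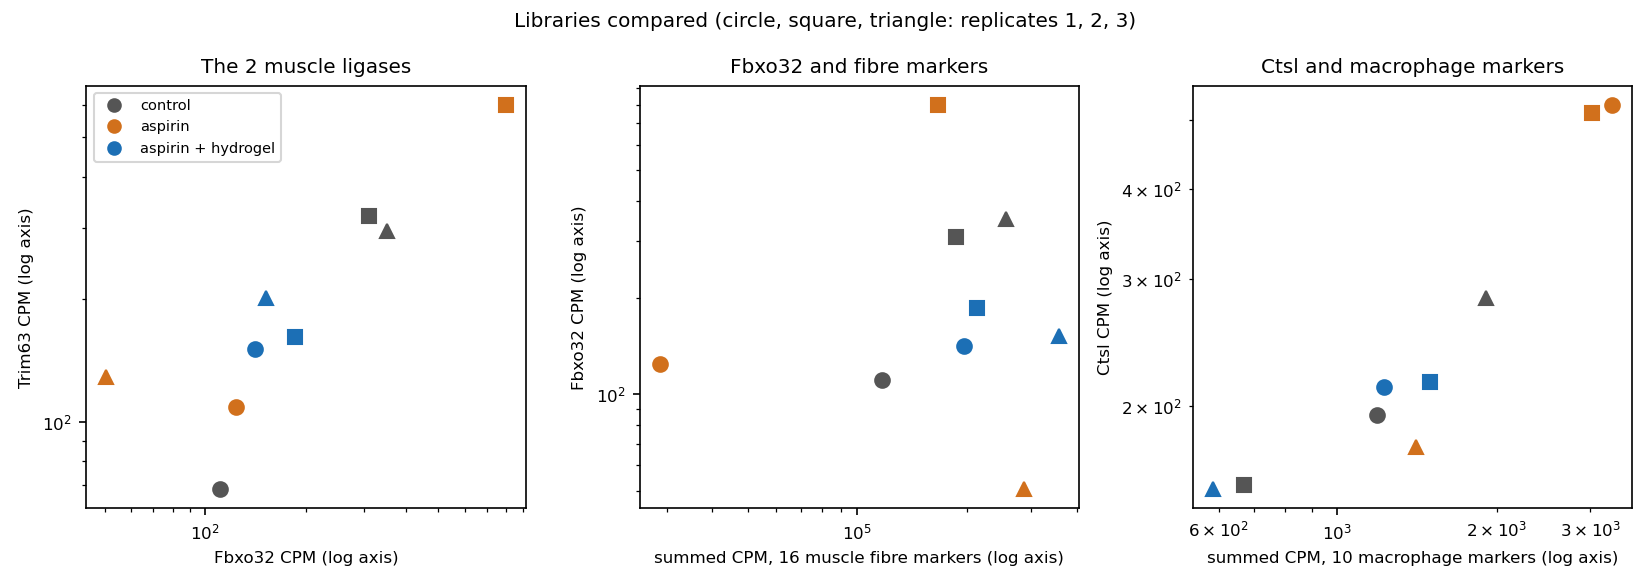
Trim63 against Fbxo32 CPM, Fbxo32 CPM against the summed CPM of 16 muscle fibre markers, and Ctsl CPM against the summed CPM of 10 macrophage markers, all on log axes, 1 point per library. The left and right panels rise from lower left to upper right, with r of 0.858 and 0.928, and the middle panel shows no slope, with r of 0.0685.

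Among 13031 genes averaging at least 1 CPM, those with a pattern over the 9 libraries most like that of Fbxo32 included Gabarapl1 with r = 0.941, Chac1 with 0.929, Tmem159 with 0.909 and Slc43a1 with 0.902. Gabarapl1, an autophagosome protein gene, stood at 39.8, 49.6 and 61.7 CPM in the controls, 44.8, 114 and 29 CPM in aspirin, and 40.4, 45 and 37.3 CPM in the hydrogel group. It was highest in Aspirin 2 and lowest in Aspirin 3, as Fbxo32 was. Without Aspirin 2 its r with Fbxo32 was 0.924. Near to Trim63 were Sorbs3 with r = 0.943, Wbp1l with 0.93, Prosc with 0.925 and Ubald1 with 0.921. These were picked as the highest of many correlations, over points that share a library and its depth, and are a description.

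The rest of the degradation machinery was read from lists of named genes, none of which held a gene past the adjusted threshold in any comparison by edgeR. The side on which many of these genes lay depended on scaling, so counts under library size alone are given beside those under TMM. Single genes are described with TMM unless stated. They were picked as the genes of each list with the smallest p for any difference in these same data. Groups that lie apart are therefore likely among them, and such statements are a description. Over all genes 5.54% were higher and 5.44% lower without overlap for aspirin against control. The shares were 6.85% and 6.30% for hydrogel against control, and 7.46% and 8.75% for hydrogel against aspirin. Of 18 other ubiquitin ligases of muscle, 8 were higher and 10 lower with aspirin than in controls, 13 higher and 5 lower in the hydrogel group than in controls, and 14 higher and 4 lower in the hydrogel group than with aspirin (median log2 fold change 0.43, against -0.05 over all genes). The splits were 12 and 6, 10 and 8, and 10 and 8 under library size alone. The 4 ligases followed here had a median of -0.43 in that last comparison. Without Aspirin 2, Fbxo32 was at 0.87, Trim63 at 0.53, Fbxo30 at -0.01 and Fbxo21 at 0.53, so this median rested on that library. Under library size alone the median of the 18 others was 0.055, while the same 4 were at -1.41, -1.1, -0.605 and -0.202. Ubr1, an N-end rule ligase, averaged 50.4 CPM in the hydrogel group against 31.5 in controls and 32.0 with aspirin, with values of 37.6, 46.2 and 67.3 CPM above all 3 control values of 27.9, 35.6 and 31.1 CPM, as also under library size alone. Ubr2 averaged 160 against 96.1 CPM in controls and Nedd4 386 against 279 CPM, each highest in Hydrogel 3.

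Ubiquitin and E2 enzyme genes held the smallest p-value among the pathway genes named here. Ube2g2, an E2 enzyme of endoplasmic reticulum protein degradation, stood at 57.7, 86.7 and 79.5 CPM in the controls, at 33.9, 41.2 and 32.4 CPM in aspirin, and at 83.7, 72.4 and 75.4 CPM in the hydrogel group. All aspirin libraries, Aspirin 1 included, lay below the 6 others, although under library size alone they overlapped the hydrogel libraries. The log2 fold change was -1.06 ± 0.22 for aspirin against control (adjusted p = 0.747 by edgeR) and 1.11 ± 0.22 for hydrogel against aspirin (adjusted p = 0.453 by edgeR, 0.00101 by DESeq2). Rps27a, a ubiquitin and ribosomal fusion gene, averaged 344 CPM with aspirin against 162 in controls, with 614 CPM in Aspirin 1, and Ube2d2a stood at 49.6 to 86.5 CPM with aspirin against 30.5 to 53.9 in controls. Over the 17 genes, 8 were higher and 9 lower with aspirin than in controls, and 13 and 4 in the hydrogel group. Under library size alone these were 13 and 4, and 5 and 12, so the directions of this list turned.

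Proteasome subunits lay close to the median of all genes. Of 32 genes, 16 were higher and 16 lower with aspirin than in controls, 26 higher and 6 lower in the hydrogel group than in controls, and 16 and 16 in the hydrogel group against aspirin, with medians of 0.05, 0.08 and -0.000741. With library size as the only scaling the splits were 27 and 5, 9 and 23, and 7 and 25. Psme4, a proteasome activator, stood at 248, 249 and 408 CPM in the hydrogel group, at 129, 249 and 229 CPM in controls and at 98.2, 199 and 187 CPM with aspirin. Psmd1 and Psmd3, subunits of the regulatory particle, were lowest in Aspirin 1, at 66.1 and 51.2 CPM, and highest in Hydrogel 3, at 313 and 139 CPM. That is the order of the muscle fibre marker sum at its ends, and its part in these levels was not tested.

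Autophagy genes split, with 14 of 22 higher with aspirin than in controls, 13 in the hydrogel group than in controls and 10 in the hydrogel group than with aspirin, against 17, 4 and 4 under library size alone. Atg5, needed for autophagosome formation, stood at 31.1, 23.3 and 21.4 CPM with aspirin, above all controls at 19, 13.8 and 19.8 CPM, but overlapping them under library size alone. Tfeb, a regulator of lysosome genes, averaged 44.1 CPM in the hydrogel group against 27.1 in controls and 23.1 with aspirin, and Ulk2, an initiating kinase, 127 against 82.2 and 73.6 CPM.

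Other cathepsin and calpain genes, the latter cytosolic proteases, lay on both sides. Of 15 genes, 9 were higher and 6 lower with aspirin than in controls (11 and 4 under library size alone), and 4 were higher and 11 lower in the hydrogel group than with aspirin (2 and 13), with a median log2 fold change of -0.52. Ctsc stood at 198, 121 and 120 CPM with aspirin, above all controls at 101, 82.4 and 84 CPM but not under library size alone, and Lgmn at 378, 330 and 205 against 158, 129 and 208 CPM. Ctsh averaged 104 CPM with aspirin, 52.2 in controls and 32.7 in the hydrogel group, and was highest in Aspirin 1 at 179 CPM. Ctss, a macrophage marker, is in this list, and the macrophage marker sum given above for Ctsl was highest in the same aspirin libraries.

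Upstream of FoxO, 12 of 28 insulin, Akt and mTOR genes were higher with aspirin than in controls, and 17 were higher in the hydrogel group in each of its comparisons. These were 18, 12 and 10 under library size alone, so the side held by most of the list turned in each comparison. Pdpk1, the kinase that activates Akt, stood at 43.2, 48.3 and 64 CPM in the hydrogel group, above controls at 33.7, 41.5 and 31.1 CPM and aspirin at 38.2, 35 and 38.3 CPM, with overlap of both under library size alone. Insr, the insulin receptor gene, averaged 65.6 CPM in the hydrogel group against 31.6 with aspirin, and stood at 27.4 CPM in Control 2 against 58.2 and 59.4 CPM in the other controls. Pik3r1, a regulatory subunit of PI3 kinase, stood at 54.1, 76 and 44.5 CPM with aspirin, below all controls at 87.8, 101 and 78.6 CPM, again with overlap under library size alone. None of these differences passed the adjusted test.

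Of 24 genes of hormones, cytokines and FoxO regulators, 11 were higher with aspirin than in controls, and 17 under library size alone. Nr3c1, the glucocorticoid receptor gene, stood at 121, 124 and 140 CPM in the hydrogel group, above all 6 other libraries, which lay at 85.9, 118 and 85.2 CPM in controls and 68.6, 73.6 and 96.7 CPM with aspirin. Under library size alone Hydrogel 3 was at 96.3 CPM, below Aspirin 1 at 112 CPM and Control 2 at 109 CPM, and the log2 fold change of Nr3c1 for hydrogel against aspirin was 0.26 in place of 0.69. Inhba, whose product forms activins, a wasting signal, was low throughout, at 4.45, 1.19 and 3.14 CPM with aspirin and 0.961, 0.29 and 0.873 CPM in controls. Tnf stood at 4.05, 0.328 and 2.57 CPM with aspirin, and the neutrophil marker sum was also highest in Aspirin 1, at 366 CPM. In Aspirin 2, where Fbxo32 and Trim63 were highest, Inhba and Tnf were the lowest of the aspirin libraries. Inhba there, at 1.19 CPM, still lay above all controls and all hydrogel libraries, which reached 0.961 and 0.937 CPM. Tnf, at 0.328 CPM, lay within the control range of 0.268 to 0.61 CPM. The part of either gene in the ligase levels was not tested.

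Genes known to answer denervation were mostly on the lower side in the hydrogel group, 13 of 18 against controls and 11 of 18 against aspirin, and 12 of 18 were lower with aspirin than in controls. The same counts were 16, 14 and 6 under library size alone, so the last one turned. Cdkn1a, a cell cycle inhibitor gene, stood at 64, 49 and 28.9 CPM in the hydrogel group, below all controls at 75.4, 103 and 90 CPM. Runx1 stood at 33.9, 33.6 and 25.3 CPM with aspirin and at 20.1, 16.4 and 8.94 CPM in the hydrogel group, without overlap. Musk, a receptor kinase of the neuromuscular junction, averaged 15.6 CPM in the hydrogel group against 6.23 in controls, with 26.6 CPM in Hydrogel 3.

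Of 20 other FoxO targets, 9 were higher with aspirin than in controls, 7 in the hydrogel group than in controls and 10 in the hydrogel group than with aspirin, against 12, 4 and 4 under library size alone. Mt2, a metallothionein gene, stood at 13.1, 15.5 and 18.7 CPM in the hydrogel group and at 166, 88.5 and 32 CPM with aspirin, while the controls held 10.4, 88.7 and 104 CPM. Zfand5, a ubiquitin-binding protein gene, stood at 118 to 133 CPM in the hydrogel group, above all 6 other libraries at 64.9 to 103 CPM. Under library size alone Hydrogel 3 was at 81.3 CPM, within the range of the others, and the log2 fold change for hydrogel against aspirin was 0.20 in place of 0.65. Tgif1 averaged 21.0 CPM with aspirin against 9.55 in controls, from Aspirin 1 and 2 at 34.3 and 20.8 CPM. None of these genes passed the adjusted test.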

How the data were processed

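RNA from leg muscle of 9 mice was sequenced from SMARTER mRNA libraries, per the labels. Gene counts that were not normalised, and FPKM of the same libraries, are the authors' deposited values. The submitters' processing notes name the build mm10. Aligner, counter, annotation and strand setting were not given in the sources used here. Over 10432 genes that reached 100 counts everywhere, 99.28% of FPKM values matched the counts within 1% once a constant per gene and library was allowed, so the 2 tables describe the same reads.

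The deposited counts of all 9 libraries entered 1 robust quasi-likelihood fit of edgeR 4.0.16 (R 4.3.3) with TMM scaling, group as the only term, and genes kept at a minimum count of 10 and total of 15. P-values were adjusted by Benjamini-Hochberg over 18259 genes, with a threshold of 0.05 and 95% intervals. The common biological coefficient of variation was 0.503. Members, pathway lists and marker lists were chosen with earlier results of these data known. Genes named beside the members are, by rule, up to 3 per pathway list with the smallest p for any difference, and the 5 most correlated with Fbxo32 and with Trim63, of which some results are not reported here. Relations were computed on log2 CPM (prior count 1) with two-sided exact permutation over all pairings.

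The mice are described as separate animals, and no libraries were alike within sampling noise (smallest chi-square per degree of freedom 77.8). The labels' replicate numbers were checked by the correlation of deviations from group means. Same-numbered aspirin and control libraries gave 0.615, 0.133 and 0.264, all over 0.1, and were read as pairs. The sample titles state no pairing, so that reading rests on these same data and is a description. For hydrogel and control the values were 0.261, -0.236 and 0.354, and for hydrogel and aspirin 0.293, -0.441 and 0.482, so these share a number only. Alternatives were other scalings, filters and samples in the fit, DESeq2 (1.42.0), limma (3.58.1) on voom weights and on log2 FPKM with pseudocounts of 1 and 0.1, a replicate block, and leaving out each library. The tests were tested on simulated counts. Coordinates are from GENCODE vM21 and upstream sequences from RefSeq on GRCm38.p6, both 1-based.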

Additional observations from a re-analysis of the deposited data

How the results depend on the processing

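No member passed the adjusted threshold under any alternative, and the smallest adjusted p was 0.145, for Ctsl in hydrogel against aspirin without Aspirin replicate 3 (edgeR). Of 480 recomputed member values 447 kept their direction and 33 reversed, and 18 of the 30 values never reversed. Over all genes DESeq2 called 101 for aspirin against control (33 higher, 68 lower), 18 for hydrogel against control (10 and 8), 157 for hydrogel against aspirin (45 and 112) and 153 for any difference, where edgeR called 0 in each. At an unadjusted p under 0.05 edgeR had 1183, 716, 1996 and 1272; without Aspirin replicate 3 it had 2682 and 4183 for the comparisons with aspirin and 2913 for any difference, without Hydrogel replicate 3 301, 864 and 766 for those with hydrogel and any difference, without Control replicate 2 576 for aspirin against control, without Control replicate 1 423 for hydrogel against control, and without Aspirin replicate 1 984 for hydrogel against aspirin. With the replicate block 1 gene was called for hydrogel against aspirin, and the block changed no call of a member or named list gene; 5 of the 9 libraries correlated best with their own number. Leaving out 1 library gave 0 to 2 calls for hydrogel against aspirin (2 without Aspirin replicate 3) and 0 to 1 for any difference. For hydrogel against aspirin, the members without overlap were 1, not 2, under library size alone and under deposited FPKM, the latter chosen after seeing the data. Of 432 values of list genes 431 kept direction and call, and Ube2g2 was called by DESeq2. Each of the 27 list genes entered only in the comparison in which its p was smallest, a choice that favours a kept direction. This share is therefore not comparable with that of the members. Reversed values for aspirin against control were, for Foxo3, 0.167 (library size alone), 0.0926 and 0.0995 (FPKM with pseudocounts 1 and 0.1); for Eif4ebp1 0.169, 0.107 and 0.111 in the same order; and for Fbxo32 -0.512 (limma-voom), -0.182 (replicate block), -0.188 and -0.231 (FPKM). For Fbxo21 in hydrogel against aspirin they were -0.202, -0.106 and -0.127. Leaving out 1 library gave, for aspirin against control, -1.56 to 0.835 for Fbxo32, -0.935 to 0.68 for Trim63, -0.00771 to 0.261 for Fbxo30, -0.271 to 0.0237 for Foxo3 and -0.358 to 0.118 for Eif4ebp1. For hydrogel against control it gave -0.112 to 0.0598 for Fbxo30, -0.563 to 0.409 for Gadd45a and -0.299 to 0.138 for Ctsl, and for hydrogel against aspirin -1.53 to 0.87 for Fbxo32, -1.08 to 0.529 for Trim63 and -0.467 to 0.0116 for Eif4ebp1. Among relations, leaving out 1 library gave r from 0.615 to 0.826 for Foxo1 with Fbxo32, 0.588 to 0.867 for Foxo3 with Fbxo32, 0.56 to 0.831 for Foxo3 with Trim63, 0.732 to 0.94 for Trim63 with Fbxo32 and -0.231 to 0.303 for the fibre markers with Fbxo32. On log2 FPKM r was 0.658 for Foxo3 with Fbxo32, 0.509 for Foxo3 with Trim63 and -0.126 for the fibre markers with Fbxo32. The cause of these changes was not tested.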

Other observations

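Markers of other cell types gave the setting in which the 10 genes were read, and no marker gene passed the adjusted threshold in any comparison by edgeR. The sum of 6 adipocyte markers was 2620 to 4090 CPM in the controls and 633 to 1980 CPM with aspirin, without overlap, and 655 to 3290 CPM in the hydrogel group. The 8 endothelial markers summed to 358 to 653 CPM in the controls and 209 to 281 CPM with aspirin, also without overlap, although scaled by library size alone these endothelial sums overlapped. The neutrophil markers, 7 of 8 above the filter, summed to 32.1 to 366 CPM with aspirin and 11 to 25.9 CPM in the hydrogel group, without overlap. Lymphocyte markers ranged from 1.17 to 695 CPM within the aspirin group alone, and from 8.32 to 249 CPM in the controls. Red blood cell markers stood at 345 to 6190 CPM in the controls and 398 to 755 CPM in the hydrogel group, smooth muscle markers at 2350 to 4110 and 2910 to 3970 CPM, and Schwann cell markers at 72.7 to 119 and 36.8 to 119 CPM.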
